A study of Homo sapiens with 10 samples.

Results

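The genes described here are 10 genes of the NF-κB pathway: TRAF1, LTB, TNFAIP2, TNFAIP3, BIRC3, RELB, NFKB1, NFKB2, NFKBIA and ICAM1. A search by symbol found 17 of the 23170 gene entries in each gene table, which are 1 entry on a reference chromosome for each of the 10 genes and 7 further entries of LTB on alternative haplotypes. On the reference chromosomes the 10 genes have 17 of the 37557 isoform entries. The set was put together with the difference between PC3-EMT14-OVOL2 and PC3-EMT14-OVOL1 in view, and that contrast shares its libraries with the comparisons against PC3-EMT14. The levels below are therefore a description, and no count of these genes is evidence for a direction that their choice had already fixed.

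RNA was sequenced from 4 cell populations that all derive from the prostate cancer line PC3 of human origin, in 10 samples. PC3-Epi (2 samples) grew as epithelial colonies and carried a lentiviral luciferase reporter. PC3-EMT14 (3 samples) was a mesenchymal population obtained from PC3-Epi after co-culture with macrophages that had been polarised with IL-4, and it was passaged until the macrophages were gone. The lines PC3-EMT14-OVOL1, with 3 samples, and PC3-EMT14-OVOL2, with 2, were PC3-EMT14 cells transduced with a lentivirus that drives OVOL1 or OVOL2, a pair of zinc finger transcription factors of epithelial tissues. All 4 populations thus share the PC3 background and the reporter lineage, each derived line goes back to the single PC3-EMT14 population, and the labels do not say whether the PC3-EMT14 libraries came from cells with an empty vector.

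NF-κB is a family of dimeric transcription factors built from RELA, REL, RELB, p50 (from NFKB1) and p52 (from NFKB2). In resting cells IκB proteins such as NFKBIA hold the dimers in the cytoplasm. Ligands of the TNF family free them through the IKK kinases in the canonical route, or through the kinase encoded by MAP3K14 and the processing of NFKB2 in the non-canonical route. Many of the pathway's own components, above all its inhibitors, are transcribed in response to it, and in prostate carcinoma the pathway is best known for survival and inflammatory signalling.

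RefSeq promoter windows (assembly GRCh38.p14, 250 bases before to 50 bases after an annotated start) were found for 9 of the 10 genes, in 15 windows. The decamer κB consensus, searched on both strands, was present in the windows of 6 genes: LTB, TNFAIP3, BIRC3, NFKB1, NFKB2 and NFKBIA. It was not matched exactly in those of TRAF1, TNFAIP2 and ICAM1. By comparison, 11.3% of all 35116 windows and 13.3% of all 27305 genes with a window held a match. The 250 bases before the start are shown for the 6 genes with a match and for TRAF1, read 5′ to 3′ on the strand of the gene, with κB matches in capitals. LTB, chr6:31582426-31582675, minus strand, and TNFAIP3, chr6:137867009-137867258, plus strand, are the ligand of the 10 genes and the inhibitor among them with the larger difference with OVOL2.
LTB: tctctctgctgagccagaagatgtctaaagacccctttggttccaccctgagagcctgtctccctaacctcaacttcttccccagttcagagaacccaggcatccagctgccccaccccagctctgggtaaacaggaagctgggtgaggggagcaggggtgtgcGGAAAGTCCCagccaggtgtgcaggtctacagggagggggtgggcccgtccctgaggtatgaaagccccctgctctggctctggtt
TNFAIP3: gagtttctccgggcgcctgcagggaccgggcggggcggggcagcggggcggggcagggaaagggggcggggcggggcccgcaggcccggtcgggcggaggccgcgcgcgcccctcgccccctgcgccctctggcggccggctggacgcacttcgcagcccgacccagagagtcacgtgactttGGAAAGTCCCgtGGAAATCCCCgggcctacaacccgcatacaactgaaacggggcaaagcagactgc
BIRC3, chr11:102317234-102317483, plus strand, and NFKBIA, chr14:35404750-35404999, minus strand, are shown as a second adaptor and inhibitor.
BIRC3: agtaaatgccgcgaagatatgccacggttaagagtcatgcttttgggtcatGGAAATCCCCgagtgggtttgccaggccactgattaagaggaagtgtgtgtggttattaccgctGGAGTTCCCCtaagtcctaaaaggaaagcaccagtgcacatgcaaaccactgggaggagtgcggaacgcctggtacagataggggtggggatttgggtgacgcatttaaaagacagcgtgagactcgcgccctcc
NFKBIA: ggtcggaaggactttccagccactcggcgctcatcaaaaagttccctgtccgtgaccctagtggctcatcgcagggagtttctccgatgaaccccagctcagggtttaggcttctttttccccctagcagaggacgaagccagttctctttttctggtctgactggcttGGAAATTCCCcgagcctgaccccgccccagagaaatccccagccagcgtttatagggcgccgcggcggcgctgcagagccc
NFKB2, chr10:102394328-102394577, plus strand, and NFKB1, chr4:102501109-102501358, plus strand, encode the precursors of p52 and p50.
NFKB2: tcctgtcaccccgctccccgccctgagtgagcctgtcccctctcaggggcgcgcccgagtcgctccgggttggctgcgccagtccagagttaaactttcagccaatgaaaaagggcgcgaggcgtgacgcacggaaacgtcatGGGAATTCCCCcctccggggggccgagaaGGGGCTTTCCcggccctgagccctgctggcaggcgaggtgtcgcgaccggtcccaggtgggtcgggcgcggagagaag
NFKB1: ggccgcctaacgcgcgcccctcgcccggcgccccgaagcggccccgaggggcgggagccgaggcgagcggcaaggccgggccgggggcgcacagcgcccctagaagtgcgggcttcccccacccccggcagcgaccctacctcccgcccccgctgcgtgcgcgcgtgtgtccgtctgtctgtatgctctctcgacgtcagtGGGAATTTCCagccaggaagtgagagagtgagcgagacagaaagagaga
TRAF1, chr9:120929172-120929421, minus strand, is shown because it differed most between the OVOL lines and holds no match in its 3 windows.
TRAF1: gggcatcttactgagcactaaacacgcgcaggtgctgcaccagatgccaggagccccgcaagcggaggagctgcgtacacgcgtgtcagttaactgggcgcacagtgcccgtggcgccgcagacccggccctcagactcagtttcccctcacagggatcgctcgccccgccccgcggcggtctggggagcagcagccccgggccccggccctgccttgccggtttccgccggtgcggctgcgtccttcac
In the windows shown, the upstream match nearest to the start began 86 bases before it in LTB, 55 in TNFAIP3, 135 in BIRC3, 81 in NFKBIA, 78 in NFKB2 and 49 in NFKB1. LTB held a further match, GGGAGGCTCC, just after its start, and the capitals farther from the start of NFKB2 hold overlapping matches on both strands. The binding consensus of OVOL2 used in the study, searched the same way, was in the windows of 0 of the 9 genes, and 1.23% of all genes had it. A match is an exact string of letters in the window, and near matches were not searched for. The ICAM1 window, for example, holds TGGAAATTCC, which departs from the κB consensus at its first base. Absence of a match says nothing about binding in the window or elsewhere.

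Each level is an FPKM value, the number of fragments scaled by transcript length and by a library factor that the authors set with upper-quartile normalization over transcriptome-compatible reads. The deposited tables give 1 pooled FPKM value per line and comparison, with no value per sample, so no replicate spread or interval could be computed. The authors' own test columns were not used here, and no difference below has a test behind it. Depth per library is unknown. A gene was counted as higher or lower where its FPKM differed by at least 2-fold, reached 1 FPKM in the higher line and was listed above 0 in both. PC3-EMT14 has a slightly different value in each of its 3 tables, and for the 10 genes the range over the tables is given.

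The transgenes themselves stood at very different levels. OVOL1 had 11.3 FPKM in the line that carries it, against 0.0238 in PC3-EMT14 and 4.25 in PC3-Epi. OVOL2 had 831 FPKM in its own line, against 0.370 in PC3-EMT14 and 9.91 in PC3-Epi. Both transgenes were thus high in the line named for them. The constructs differed as well. Per the study's methods, OVOL2 was cloned into a lentiviral vector with an epitope tag, and OVOL1 was a purchased overexpression construct. Between these lines, which factor was expressed cannot be told apart from how much of it there was or from the construct that carried it.

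**Figure D1:**
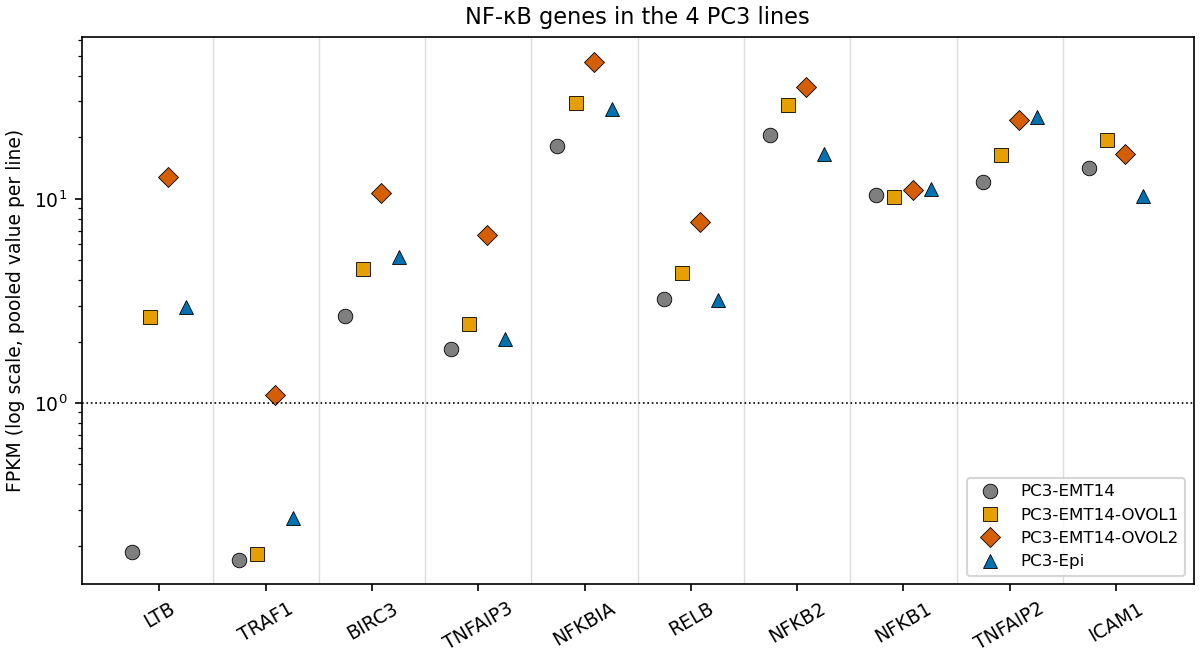
Pooled FPKM of the 10 NF-κB genes (log scale) in PC3-EMT14 (circles, lowest of its 3 tables), PC3-EMT14-OVOL1 (squares), PC3-EMT14-OVOL2 (diamonds) and PC3-Epi (triangles); the dotted line marks 1 FPKM and each point is 1 pooled value without an error. PC3-EMT14-OVOL2 has the highest point for LTB, TRAF1, BIRC3, TNFAIP3, NFKBIA, RELB and NFKB2, and the 4 points of NFKB1 lie within a factor of 1.09.

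LTB encodes lymphotoxin-β, the membrane-anchored ligand of the lymphotoxin-β receptor and an activator of the non-canonical route. Its FPKM was 0.186 to 0.193 in PC3-EMT14, 2.63 in PC3-EMT14-OVOL1, 2.94 in PC3-Epi and 12.8 in PC3-EMT14-OVOL2. It was the only gene of the set that was over 2-fold higher in all 3 lines than in PC3-EMT14. The fold against PC3-EMT14 was 13.9 with OVOL1, 15.3 in PC3-Epi and 68.9 with OVOL2, and these 3 folds share the same PC3-EMT14 libraries and a base below 0.2 FPKM. With 1 FPKM added to both values the log2 fold for OVOL1 was 1.61 in place of 3.80. Between the OVOL lines LTB was 4.94-fold higher with OVOL2, and 8 of the genes counted had a larger fold there. LTB lies at chr6:31548336-31550202 (hg19, minus strand), within the major histocompatibility complex, and its 7 entries on alternative haplotypes of that region were all listed at 0.

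The partners of LTB differed little or were scarce in the same tables. LTBR, its receptor, had 70.7 FPKM in PC3-EMT14 against 79.2 with OVOL2, a fold of 1.12. LTA, which forms the heterotrimer with LTB, had 0.0866 FPKM in PC3-EMT14 against 0.179 with OVOL2, below the level required for a count. TNF was at 0.0349 FPKM or lower in every line.

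TRAF1 encodes an adaptor of the TNF receptor family, which recruits the cellular inhibitors of apoptosis and is a well-known NF-κB target. It was at 0.171 to 0.177 FPKM in PC3-EMT14, 0.181 FPKM in PC3-EMT14-OVOL1, 0.274 FPKM in PC3-Epi and 1.09 FPKM in PC3-EMT14-OVOL2. PC3-EMT14-OVOL2 was thus the sole line in which TRAF1 reached 1 FPKM, and it passed that level narrowly. Its fold with OVOL2 was 6.38 over PC3-EMT14 and 6.09 over PC3-EMT14-OVOL1, and 6 of the genes counted had a larger fold between the OVOL lines. At a minimum of 5 FPKM, or with 1 FPKM added to each value, TRAF1 was no longer counted in either comparison. In hg19 TRAF1 lies at chr9:123664671-123691451 on the minus strand.

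BIRC3 encodes cIAP2, the ubiquitin ligase that binds TRAF proteins and restrains the non-canonical kinase (chr11:102188194-102208465, hg19, plus strand). Its FPKM was 2.66 to 2.75 in PC3-EMT14, 4.53 in PC3-EMT14-OVOL1, 5.22 in PC3-Epi and 10.7 in PC3-EMT14-OVOL2. The OVOL2 line was 4.02-fold above PC3-EMT14 and 2.39-fold above the OVOL1 line, whereas the OVOL1 line and PC3-Epi stood 1.68-fold and 1.90-fold above PC3-EMT14. The paralogue BIRC2 stood lower with OVOL2, with 15.8 FPKM in PC3-EMT14 against 11.9, a fold of 0.752. TRAF2 and TRAF3, the adaptors that sit in the same complex, showed folds of 1.27 and 1.07 with OVOL2. TRAF4, a more distant relative, was the one other adaptor counted, at a fold of 2.62 in PC3-Epi and 1.24 with OVOL2.

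Among the subunits, RELB, the transcriptionally active partner of p52 (chr19:45504712-45541452), had the larger difference. RELB was at 3.24 to 3.35 FPKM in PC3-EMT14, 3.19 FPKM in PC3-Epi, 4.35 FPKM in PC3-EMT14-OVOL1 and 7.71 FPKM in PC3-EMT14-OVOL2. The OVOL2 line was 2.38-fold above PC3-EMT14 and 1.79-fold above the OVOL1 line, and the latter difference did not reach 2-fold. NFKB2 (chr10:104154229-104162281) had the same order of lines, with 16.6 FPKM in PC3-Epi, 20.5 to 21.2 in PC3-EMT14, 28.8 with OVOL1 and 35.2 with OVOL2. Its fold with OVOL2 was 1.72 over PC3-EMT14, the value nearest to 2-fold among the genes that were not counted. NFKB1 (chr4:103422486-103538459) was nearly level, at 10.2 FPKM with OVOL1, 10.5 to 10.8 in PC3-EMT14, 11.1 with OVOL2 and 11.1 in PC3-Epi.

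The 2 subunits outside the set are both partners in canonical dimers. REL, the subunit c-Rel, had 1.25 FPKM with OVOL2 against 0.558 in PC3-EMT14, a fold of 2.25 at a low level. RELA, the main canonical activator, was at 33.8 and 31.5 FPKM, a fold of 0.932. Of the 5 subunits, 2 were therefore counted as higher with OVOL2 over PC3-EMT14, beside 4.16% of all genes. Between the OVOL lines 0 were, beside 1.68%. REL reached 1 FPKM only through the OVOL2 line.

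The inhibitors TNFAIP3 and NFKBIA were higher with OVOL2 as well. TNFAIP3 encodes A20, a ubiquitin-editing enzyme that ends signalling from TNF receptors (chr6:138188581-138204449). It was at 1.83 to 1.89 FPKM in PC3-EMT14, 2.06 FPKM in PC3-Epi, 2.45 FPKM in PC3-EMT14-OVOL1 and 6.63 FPKM in PC3-EMT14-OVOL2. The values of PC3-EMT14, PC3-Epi and the OVOL1 line spanned a narrow range, and the OVOL2 line was 2.73-fold above the OVOL1 line and 3.62-fold above PC3-EMT14. NFKBIA encodes IκBα, the inhibitor that retains canonical dimers in the cytoplasm (chr14:35870716-35873960). Its FPKM was 18.2 to 18.8 in PC3-EMT14, 27.7 in PC3-Epi, 29.4 with OVOL1 and 47.0 with OVOL2. It was 2.59-fold higher with OVOL2 than in PC3-EMT14 and 1.62-fold higher than with OVOL1.

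TNFAIP2 and ICAM1 are further inducible genes of inflamed epithelium and endothelium, and they followed other orders. TNFAIP2, a cytoplasmic protein linked to membrane protrusions (chr14:103592664-103603776), was at 12.1 to 12.5 FPKM in PC3-EMT14, 16.4 FPKM with OVOL1, 24.4 FPKM with OVOL2 and 25.3 FPKM in PC3-Epi. Its folds of 2.03 with OVOL2 and 2.03 in PC3-Epi, both over PC3-EMT14, lay just past 2-fold. Of the 8 genes named TNFAIP, 5 reached 1 FPKM with OVOL2, where TNFAIP2 and TNFAIP3 were counted, and in PC3-Epi TNFAIP2 and TNFAIP8 were, the latter at a fold of 2.26. Of all genes, 4.16% were higher with OVOL2 and 7.09% in PC3-Epi. ICAM1, an adhesion molecule that binds leukocyte integrins (chr19:10381517-10397291), was at 10.4 FPKM in PC3-Epi, 14.1 to 14.6 in PC3-EMT14, 16.6 with OVOL2 and 19.3 with OVOL1. ICAM1 was the single gene of the set with a lower value in the OVOL2 line than in the OVOL1 line, with a fold of 0.866.

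**Figure D2:**
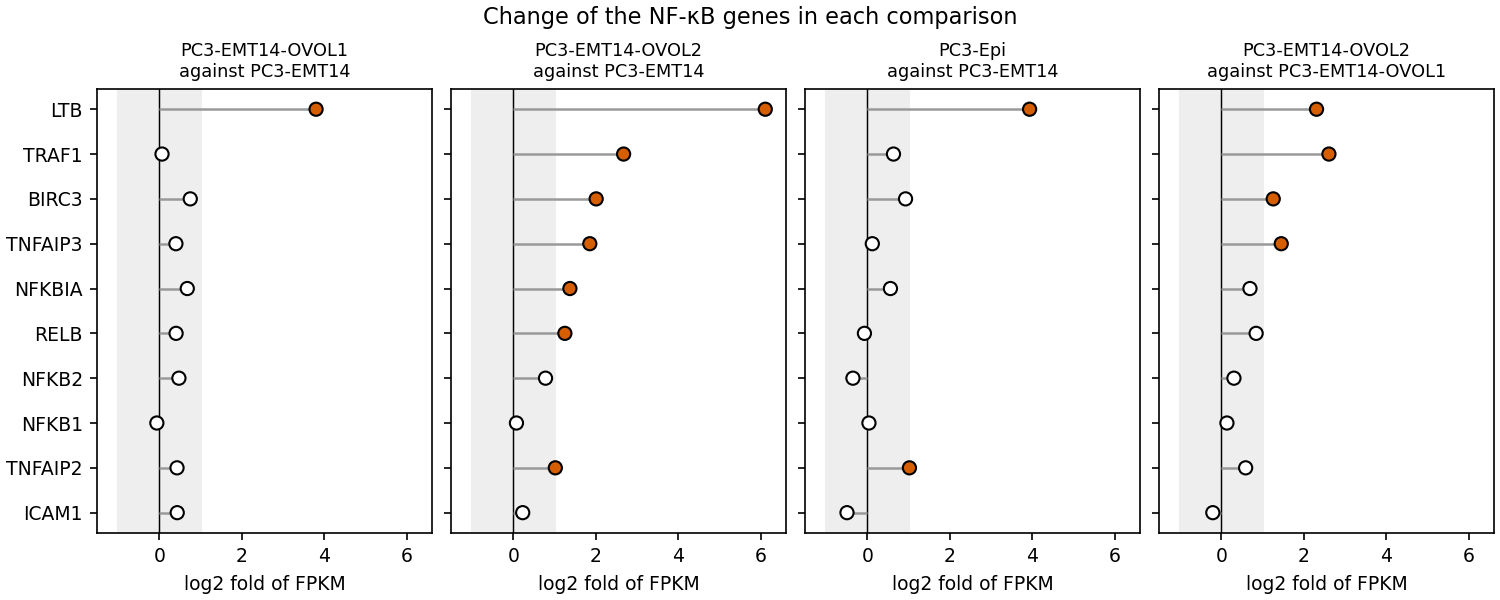
Log2 fold of FPKM of the 10 NF-κB genes in each of the 4 comparisons; grey marks differences under 2-fold, and orange points are genes counted as higher. Counted genes over PC3-EMT14 number 1 for OVOL1, 7 for OVOL2 and 2 for PC3-Epi, and between the OVOL lines 4.

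Counted over the set, PC3-EMT14-OVOL1 had 1 gene higher by 2-fold or more than PC3-EMT14, LTB, of the 9 that reached 1 FPKM, and 0 lower. Of all 12111 genes at this level, 2.06% were higher and 1.23% lower. PC3-EMT14-OVOL2 had 7 of 10 higher and 0 lower, beside 4.16% higher and 2.58% lower of all 12226 genes. PC3-Epi had 2 of 9 higher, LTB and TNFAIP2, and 0 lower, beside 7.09% and 7.96% of all 12344 genes. Between PC3-EMT14-OVOL2 and PC3-EMT14-OVOL1 the count was 4 of 10 higher, TRAF1, LTB, TNFAIP3 and BIRC3, and 0 lower, beside 1.68% and 0.801% of all 12113 genes. TRAF1 reached 1 FPKM only through the OVOL2 line and had to differ if counted there. The same holds for LTB in the 3 comparisons over PC3-EMT14, where its base was below 0.2 FPKM, so LTB could be included there only with a large difference.

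The median log2 fold of all 10 genes over PC3-EMT14 was 0.43 for OVOL1, 1.31 for OVOL2 and 0.34 for PC3-Epi, and it was 0.77 between the OVOL lines. Without TRAF1 where it did not reach 1 FPKM, the medians were 0.44 for OVOL1 and 0.12 for PC3-Epi. The medians of all genes that reached 1 FPKM were -0.00, -0.04, -0.01 and -0.04. The comparisons against PC3-EMT14 share its libraries, and the direct comparison shares the libraries of both OVOL lines, so the 4 medians do not stand independently of each other. Because the choice of the genes used the OVOL2 line, nothing is read from these counts and medians about the pathway as a whole.

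**Figure D3:**
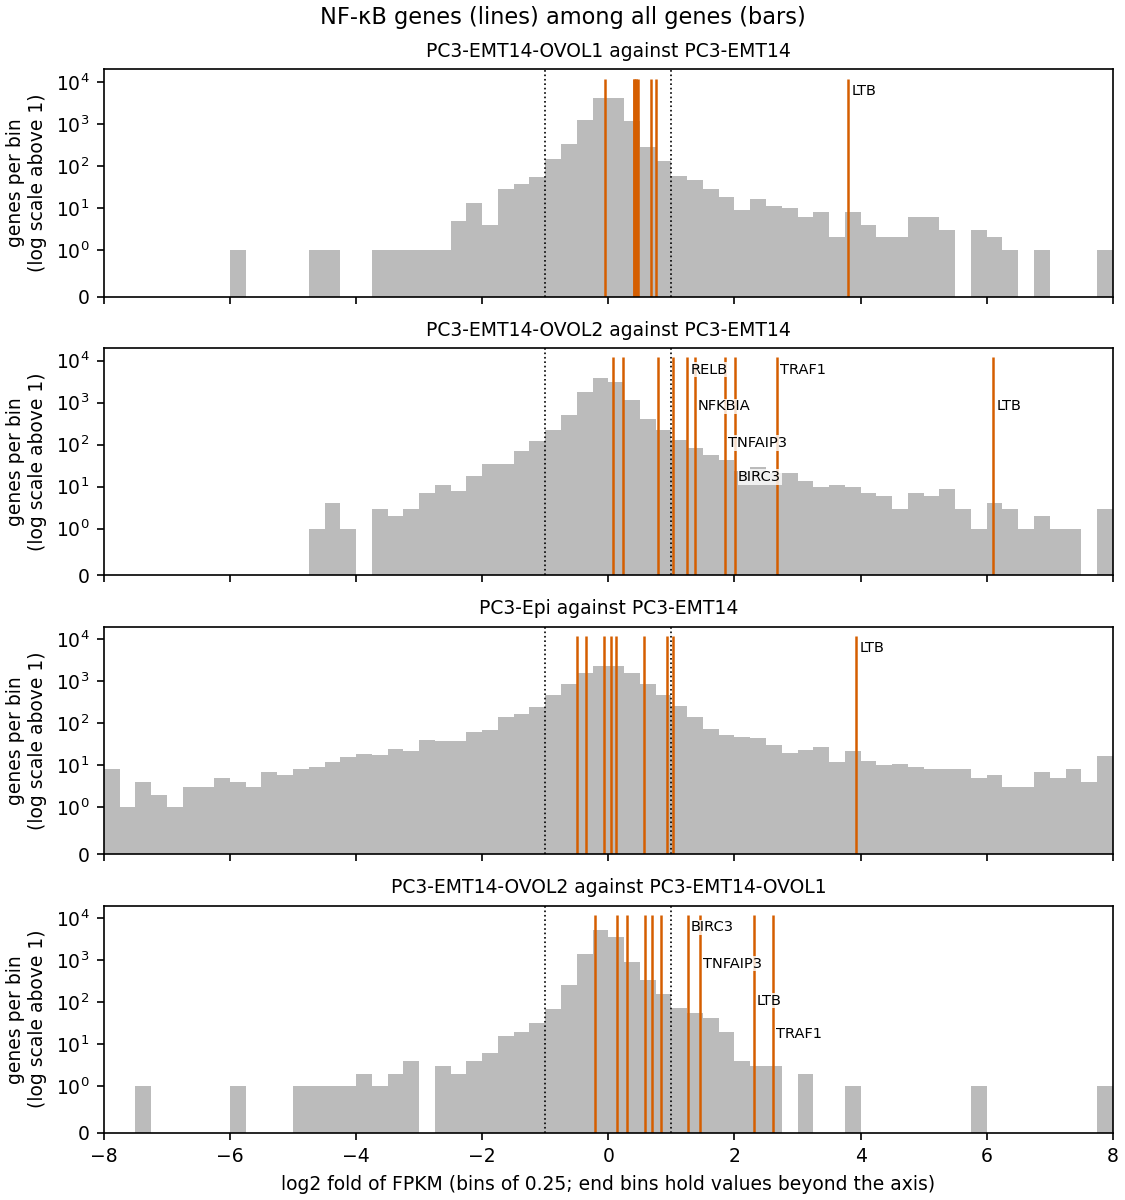
Numbers of genes per 0.25 bin of log2 fold of FPKM (grey bars, log scale above 1) in the 4 comparisons, with the NF-κB genes that reached 1 FPKM as orange lines and dotted lines at 2-fold. LTB lies in the far right tail in all 4 panels, and with OVOL2 over PC3-EMT14 TRAF1, BIRC3 and TNFAIP3 also lie at a log2 fold of 1.85 or more.

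The isoform tables show how these gene levels were divided among transcripts, as estimated by the authors' software. LTB has 2 isoforms. The first was at 0 in PC3-EMT14, 2.94 FPKM in PC3-Epi, 1.54 FPKM with OVOL1 and 7.30 FPKM with OVOL2. The other was at 0.186 FPKM in PC3-EMT14, 1.09 FPKM with OVOL1, 5.54 FPKM with OVOL2 and 0 in PC3-Epi. The shares of the first isoform were 58.6% with OVOL1 and 56.9% with OVOL2, so both OVOL lines carried the 2 transcripts in a similar ratio while PC3-Epi was listed with 1 of them.

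TRAF1 has 3 isoforms, and the last made up 77.9% of its FPKM in PC3-EMT14-OVOL2, at 0.850 FPKM. The same isoform had 0.131 FPKM in PC3-EMT14 and 0.153 with OVOL1, which puts OVOL2 6.47-fold above PC3-EMT14. The first TRAF1 isoform was at 0.241 FPKM with OVOL2 and 0.152 FPKM in PC3-Epi. For BIRC3, both isoforms were higher with OVOL2 than in PC3-EMT14, by 4.11-fold and 3.78-fold.

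The isoform shares of NFKB1 were nearly the same in PC3-EMT14 and with OVOL2, and differed most with OVOL1. Those of NFKB2 differed most with OVOL2. The first NFKB1 isoform took 36.2% of the gene in PC3-EMT14, 42.0% in PC3-Epi, 48.1% with OVOL1 and 36.8% with OVOL2. The first of the 3 NFKB2 isoforms had 1.79 FPKM in PC3-EMT14 against 6.77 with OVOL2, a fold of 3.77, while the most abundant one had 14.8 against 21.1 FPKM, a fold of 1.42. The share of the first isoform was 19.2% with OVOL2, 8.76% in PC3-EMT14, 12.3% with OVOL1 and 8.49% in PC3-Epi. The level of each isoform rests on how shared reads were assigned, which cannot be checked from these tables.

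**Figure D4:**
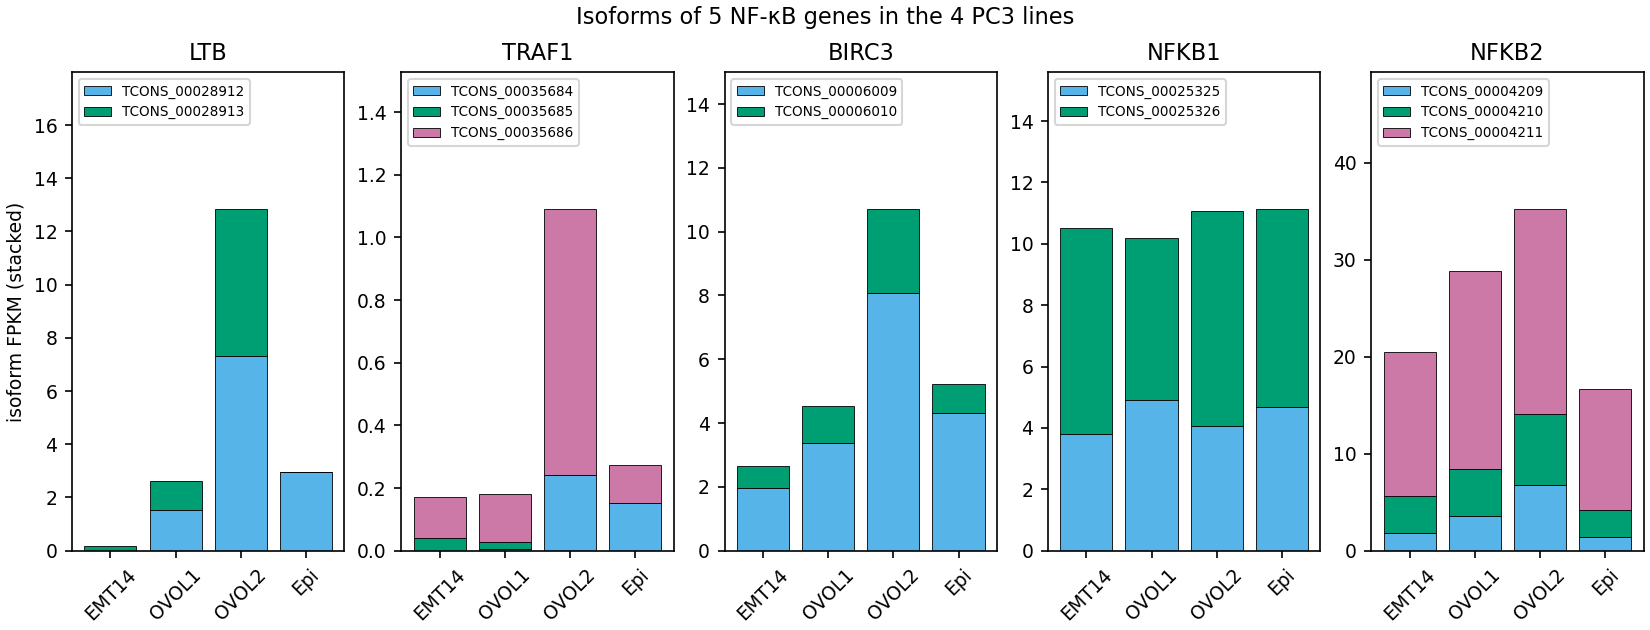
Stacked isoform FPKM of LTB, TRAF1, BIRC3, NFKB1 and NFKB2 in PC3-EMT14, the OVOL1 and OVOL2 lines and PC3-Epi, 1 pooled value each, with a separate linear axis per gene and colours for the isoforms. The LTB bar of PC3-Epi holds 1 isoform and those of the OVOL lines hold 2, and the lowest segment of NFKB2 is largest with OVOL2.

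The pathway lists hold 90 further genes besides the 10. With OVOL2 over PC3-EMT14, 15 of the 67 that reached 1 FPKM were higher by 2-fold and 2 were lower, beside 4.16% and 2.58% of all genes. With OVOL1 the counts were 9 higher and 1 lower of 62, beside 2.06% and 1.23%. In PC3-Epi they were 6 higher and 5 lower of 65, shares near the 7.09% and 7.96% of all genes. Between the OVOL lines 6 of 66 were higher with OVOL2 and 0 were lower, beside 1.68% and 0.801%. The lists were chosen with earlier results of these data known, so nothing is read from these counts about the pathway. Over PC3-EMT14 the median log2 fold of these genes was 0.35 for OVOL2, 0.09 for OVOL1 and -0.03 for PC3-Epi, and between the OVOL lines it was 0.09.

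With OVOL2 over PC3-EMT14, 2 of the 5 ligand entries that reached 1 FPKM were higher and 0 lower. Of 8 receptors 1 was higher and 1 lower, beside 4.16% and 2.58% of all genes. With OVOL1, 2 of 5 ligands and 0 of 8 receptors were higher and 0 lower, beside 2.06% and 1.23%. In PC3-Epi 2 of 6 ligands and 2 of 9 receptors were higher, and as many were lower, beside 7.09% and 7.96%. Between the OVOL lines 2 of 5 ligands and 0 of 8 receptors were higher and 0 lower, beside 1.68% and 0.801%. TNFSF15, a TNF-family cytokine, was at 0.916 FPKM in PC3-EMT14, 2.06 in the OVOL1 line, 6.83 in the OVOL2 line and 1.73 in PC3-Epi, and it was 3.36-fold higher with OVOL2 than with OVOL1. IL1B was at 765 FPKM with OVOL1 and 738 FPKM with OVOL2, about its level of 710 to 733 FPKM in PC3-EMT14, and at 23.4 FPKM in PC3-Epi. Of the 8 receptors at 1 FPKM or more with OVOL2, TLR2 was 2.33-fold higher and TLR4 was at a fold of 0.421 over PC3-EMT14. In PC3-Epi, TNFSF10 was counted as higher beside LTB among the ligands, at a fold of 2.01, and TNFRSF21 and IL1R1 among the receptors, at 2.26 and 2.60. The ligands IL1B and TNFSF9 were lower there, at folds of 0.0320 and 0.287, as were the receptors TLR4 and TNFRSF11A, at 0.0952 and 0.469. TNFRSF1A, the main TNF receptor of epithelial cells, had 49.5 FPKM in PC3-EMT14 against 39.1 with OVOL2.

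Among the 11 IKK components and upstream kinases, 1 was higher with OVOL2 and 0 were lower, beside 4.16% and 2.58% of all genes. The 1 counted was MAP3K14, the kinase of the non-canonical route. MAP3K14 was at 4.11 FPKM in PC3-EMT14, 6.30 in the OVOL1 line, 11.1 in the OVOL2 line and 6.72 in PC3-Epi. Its fold was 2.69 over PC3-EMT14 and 1.78 over the OVOL1 line. The IKK subunits CHUK, IKBKB and IKBKG had folds of 0.918, 0.984 and 0.930 with OVOL2. IKBKE had 6.65 FPKM in PC3-EMT14 against 10.4 with OVOL2. Its folds were 1.56 over PC3-EMT14 and 1.60 over the OVOL1 line, below 2-fold.

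The IκB proteins and other negative regulators differed by less with OVOL2 than the 2 inhibitors of the set did, with ZC3H12A as the exception. ZC3H12A, an RNase that degrades inflammatory mRNAs, was at 3.10 FPKM in PC3-EMT14, 9.25 with OVOL1 and 11.9 with OVOL2, and at 3.52 FPKM in PC3-Epi. NFKBIB, NFKBIE and BCL3 had folds of 1.36, 1.48 and 1.36 with OVOL2. NFKBID had a fold of 1.82, at 0.775 FPKM in PC3-EMT14 against 1.41 with OVOL2. NFKBIZ shares its entry with FAM55C, and the fold of 0.770 of that entry cannot be assigned to either gene. TNIP1, which works with A20, had 36.7 FPKM in PC3-EMT14 against 61.7 with OVOL2, a fold of 1.68.

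Of the 30 other inducible genes listed, 24 reached 1 FPKM with OVOL2 or PC3-EMT14. With OVOL2, 10 were higher and 1 lower, beside 4.16% and 2.58% of all genes. With OVOL1 the counts were 7 higher and 1 lower of 20, beside 2.06% and 1.23%. In PC3-Epi they were 2 higher and 1 lower of 22, beside 7.09% and 7.96%. Between the OVOL lines 5 of 23 were higher with OVOL2 and 0 lower, beside 1.68% and 0.801%. The chemokine CXCL3 was at 3.97 FPKM in PC3-EMT14, 15.6 in the OVOL1 line, 37.1 in the OVOL2 line and 2.10 in PC3-Epi. IL6 was at 1.31 FPKM in PC3-EMT14, 8.22 in the OVOL1 line, 17.9 in the OVOL2 line and 2.55 in PC3-Epi. IL8, listed under its older symbol, was at 78.9, 291, 538 and 204 FPKM in the same order of lines. These 3 cytokine genes thus stood above PC3-EMT14 in both OVOL lines, in contrast to TRAF1, and their folds between the OVOL lines were 2.41, 2.20 and 1.87. The chemokine genes CXCL1 and CXCL2 and the growth factor gene CSF2 also rose from PC3-EMT14 to OVOL1 to OVOL2. Their folds over PC3-EMT14 were 4.69, 3.23 and 5.12 for OVOL1 and 7.68, 5.77 and 9.06 for OVOL2. In PC3-Epi these folds were 1.11, 0.763 and 0.783. CXCL6 was counted with OVOL1 alone, at folds of 2.09 for OVOL1 and 1.75 for OVOL2. CXCL5, CCL20 and the gelatinase gene MMP9 were counted with OVOL2, at levels of 1.52, 1.33 and 1.23 FPKM. In PC3-EMT14 they were at 0.590, 0.214 and 0.591 FPKM, so only the OVOL2 line brought them to 1 FPKM in that comparison. With OVOL1 over PC3-EMT14 their folds were 1.28, 2.88 and 0.682, and CCL20 was left out there because it was at 0.625 FPKM. In PC3-Epi CXCL5 was highest, at 1.74 FPKM, and was counted at a fold of 2.86. CCL20 and MMP9 were at 0.295 and 0.795 FPKM there. BCL2A1, an anti-apoptotic target, was the lower one, at 35.5 FPKM in PC3-EMT14, 11.2 in the OVOL1 line, 10.7 in the OVOL2 line and 0.685 in PC3-Epi.

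**Figure D5:**
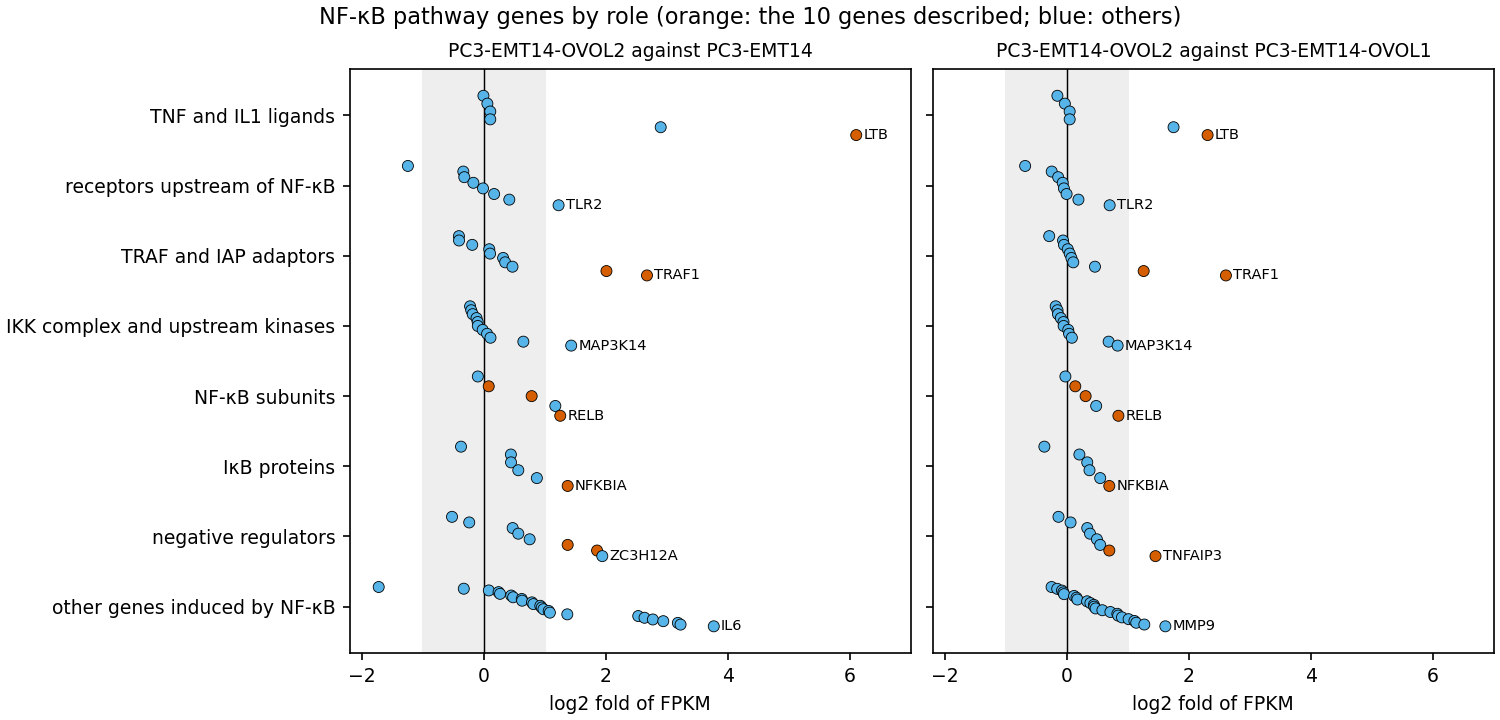
Log2 fold of FPKM of the pathway genes that reached 1 FPKM, grouped by role, for PC3-EMT14-OVOL2 over PC3-EMT14 and over PC3-EMT14-OVOL1; orange points are the 10 genes described, blue points the other listed genes, and grey marks differences under 2-fold. LTB is the rightmost ligand and TRAF1 the rightmost adaptor in both panels, while most IKK components cluster near 0 with IKBKE and MAP3K14 to the right.

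The genes whose pattern over the 4 lines came closest to that of TRAF1 were ranked by the distance between their 3 log2 folds over PC3-EMT14, with 0.1 FPKM added, among 12633 genes. CCR1, a chemokine receptor, was nearest at a distance of 0.400, with 0.254 FPKM in PC3-EMT14 against 1.16 with OVOL2, and TNFAIP3 was next at 0.577. KRTAP2-4, MYH16 and LOC730755 followed at 0.600, 0.613 and 0.663. For LTB the nearest were C15orf48, at 0.522, with 1.51 FPKM in PC3-EMT14, 21.0 in the OVOL1 line, 61.7 in the OVOL2 line and 18.3 in PC3-Epi, and PTAFR at 0.977. PTAFR, the receptor of platelet-activating factor, was at 0.238, 4.07, 10.6 and 5.91 FPKM in that order. EPR1, DENND1C and CDH3 followed at 1.44, 1.46 and 1.52, of which EPR1 was listed at 0 in PC3-EMT14.

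The lines also differed in the markers of their epithelial or mesenchymal state. The summed FPKM of 8 epithelial markers was 245 in PC3-EMT14, 438 in the OVOL1 line, 746 in the OVOL2 line and 1135 in PC3-Epi, and that of 6 mesenchymal markers was 337, 224, 107 and 90.0. CDH1, which encodes E-cadherin, was 16.5-fold higher with OVOL1, 40.4-fold with OVOL2 and 50.4-fold in PC3-Epi, and ZEB1, a repressor of epithelial genes, was at folds of 0.572, 0.241 and 0.0171. The mesenchymal sum was mostly VIM, at 271 FPKM in PC3-EMT14, and single markers departed from the order of the sums. FN1 had 33.8 FPKM in PC3-Epi against 18.4 and 16.5 in the OVOL1 and OVOL2 lines, and SPARC had 4.92 with OVOL1 against 4.18 to 4.32 in PC3-EMT14. ESRP1, an epithelial splicing factor, had 15.2 FPKM with OVOL1 against 11.7 with OVOL2, and RAB25 had 0.108 and 0.122 FPKM in these lines against 24.2 in PC3-Epi. TRAF1, LTB, TNFAIP2, TNFAIP3, BIRC3, NFKBIA and the epithelial sum were lowest in PC3-EMT14. RELB, NFKB2 and ICAM1 were lowest in PC3-Epi, and NFKB1 was lowest in the OVOL1 line. PC3-Epi had the highest epithelial sum and stood below the OVOL2 line for 8 of the 10 genes. Whether the epithelial shift plays a part in these levels was not tested. In these bulk samples, fewer cells of a kind and less RNA per cell cannot be told apart.

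Markers of the macrophages of the original co-culture were low. Of 14 macrophage markers, 13 were under 1 FPKM in every line, and the exception, CD68, was at 54.1 FPKM in PC3-EMT14, 51.2 in the OVOL1 line, 57.8 in the OVOL2 line and 13.2 in PC3-Epi. Of 6 lymphocyte markers, CD79A alone reached 1 FPKM, at 1.72 in PC3-EMT14, 1.23 with OVOL1 and 3.32 with OVOL2, and the second highest was at 0.0323 FPKM or lower in those lines.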

How the data were processed

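RNA from 10 samples of PC3-derived lines was sequenced in paired-end mode. Per the labels and the study's methods, the authors used TopHat to align reads to UCSC hg19 and Cuffdiff to compare groups in pairs, with multi-read correction, upper-quartile scaling, compatible-hits normalization and bias correction. The FPKM values deposited by the authors are 1 pooled estimate per group and table, for genes and for isoforms, so no spread between samples can be had and depth is unknown. The tables also hold the authors' fold changes, test statistics, p-values and q-values, which were not used.

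Groups came from the sample labels. A table's columns were matched to groups by the lines in the table's name, their order, and the short labels it holds. The short label of PC3-Epi lacks the ending "trim" that those of the other lines carry, and what this ending stands for is not stated. Folds were ratios of FPKM within a table, with no pseudocount. A gene was counted at a 2-fold difference with at least 1 FPKM in the higher group. Genes listed at 0 in 1 group were left out, a choice made after the tables were seen, because a level of 0 can be a failed estimate. The 10 genes and the pathway and marker lists were chosen with earlier results of these data known. Named genes are the 10, listed pathway genes past 2-fold, and the 5 nearest patterns to TRAF1 and to LTB. Listed genes named below 2-fold (RELA, LTBR, TRAF2 and others) were picked for their role after their values were seen, and of the marker genes past 2-fold only examples are named. The OVOL2 consensus search, and the choice of window shown (the first with a κB match, otherwise the first listed), were added after the tables were seen. Positions of genes are those of the tables on hg19, and promoter sequences are from RefSeq on GRCh38.p14. The counting was checked on simulated data. Python 3.11.15, numpy 2.4.6, pandas 2.3.3 and matplotlib 3.10.9 were used.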

Additional observations from a re-analysis of the deposited data

How the results depend on the processing

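No paired analysis was possible because each table holds 1 pooled value per group, and for the same reason no sample could be left out in turn. The counts of the 10 genes past the threshold depended on where it was set. At 1.5-fold, 3 genes were counted with OVOL1 over PC3-EMT14 (LTB, BIRC3 and NFKBIA) and 7 between the OVOL lines. At 4-fold the counts were 3 with OVOL2 over PC3-EMT14 (TRAF1, LTB and BIRC3), 1 in PC3-Epi (LTB) and 2 between the OVOL lines (TRAF1 and LTB). With a minimum of 5 FPKM, 0 genes were counted with OVOL1 and 1 in PC3-Epi (TNFAIP2), and with 1 FPKM added to each value 1 was counted in PC3-Epi (LTB). With OVOL2 over PC3-EMT14, TRAF1 was lost under both of these settings and TNFAIP2 with 1 FPKM added. A minimum of 0.1 FPKM or none, 0.1 FPKM added, centring on the median of all genes, summed isoforms and, between the OVOL lines, the ratio of the folds over PC3-EMT14 left each count within 1.5 times of the value reported, and no counted gene turned its direction under any of them. Counting genes listed at 0 in 1 group, an alternative added after the tables were seen, left the counts of the 10 genes as they were and brought all genes to 296 higher and 188 lower with OVOL1, 544 and 360 with OVOL2, 917 and 1037 in PC3-Epi, and 232 and 143 between the OVOL lines. The κB consensus with A or T at its sixth base was in the windows of 6 genes again, against 7.09% of all genes with a window and 5.91% of all windows.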

Other observations

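PLAU, a urokinase gene and an NF-κB target, was listed at 0 FPKM in PC3-EMT14-OVOL1 and at 954 to 984 FPKM in PC3-EMT14, 2016 FPKM in PC3-EMT14-OVOL2 and 927 FPKM in PC3-Epi. It was left out of the comparisons with the OVOL1 line, as were all 86 genes at 1 FPKM or more that were listed at 0 in one of the groups when OVOL1 was set against PC3-EMT14.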
